A study of Mus musculus with 14 samples.

Results

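H3K4me1 was compared between mouse ESCs and cells differentiated with retinoic acid, using the only H3K4me1 library of each cell state, which are 2 of the 14 samples of the series. Both came from R1, a male mouse ESC line kept in serum and LIF with the MEK inhibitor PD0325901 and the GSK3 inhibitor CHIR99021 (2i). ESCs had been grown for 2 days in LIF medium after 2i was taken away. Differentiated cells had been grown for 4 days in serum with 1 µM retinoic acid and no LIF, a treatment that gives a mixture of cell types, so each value averages over that mixture. Chromatin was cut with MNase, pulled down with an H3K4me1 antibody and treated with bisulfite (ChIP-BS-seq), which changes unmethylated cytosine and leaves 5mC, so that each library measures where the mark is and how methylated the marked DNA is. The rule took every H3K4me1 peak of either state, 145840 in ESCs and 158989 in differentiated cells, and peaks that overlapped by at least 1 bp were joined into 204037 merged regions. Of these, 70738 held peaks of both states, 64973 an ESC peak alone (lost) and 68326 a peak of differentiated cells alone (gained). The series holds 1 library of H3K4me1 per state, so no difference here has a replicate check. The paper states that experiments were repeated, but repeats cannot be told apart in the counts. Intervals cover counting error only and take CpG counts as independent.

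H3K4me1 is placed on nucleosomes at enhancers and on the shoulders of promoters, mainly by the methyltransferases MLL3 and MLL4. It marks enhancers that are primed as well as those in use, and H3K27ac is added on top where an enhancer is active. 5mC is written by DNMT3A and DNMT3B and kept by DNMT1, while TET enzymes remove it, and enhancers in use usually carry little of it. ESCs in 2i have low 5mC across the genome, which rises once 2i is taken away and cells leave pluripotency. Retinoic acid binds nuclear receptors and drives ESCs out of pluripotency.

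The ESC library held 58803653 CpG counts, and the library of differentiated cells held 47177841. Of these counts, 85.3% and 84.5% lay in the merged regions, which cover 658 Mb. On the mitochondrial genome, which is taken to lack 5mC, 0.383% of 7053 counts were read as methylated in ESCs and 3.23% of 1176 in differentiated cells. The H3K27ac libraries of the same 2 states (32588942 and 32305709 counts) played no part in the choice of regions and are given beside the results. XEN cells (extraembryonic endoderm made from R1 with 0.1 µM retinoic acid and Activin A over 9 days) have 2 libraries for each mark, and the difference between such a pair in the same regions serves as a measure of how far libraries of 1 state lie apart. In XEN cells the file names and the sample labels swap the marks, and the labels were followed, so a XEN library is named by its label. The merged regions held 70.2% and 68.4% of the counts of XEN libraries labelled H3K4me1 and 92.1% and 90.4% of those labelled H3K27ac, beside 64.4% and 66.1% for H3K27ac of ESCs and differentiated cells. Outside these regions 5mC was 40.6% and 42.7% in XEN libraries labelled H3K4me1 and 63.0% and 63.7% in those labelled H3K27ac. It was 43.1% and 39.4% in H3K27ac of ESCs and differentiated cells, and 56.6% and 62.3% in H3K4me1. By these values each XEN library lay nearer the mark of its file name than that of its label, so its mark is unsettled.

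Nearly the same number of H3K4me1 peaks was lost as was gained. Of the ESC peaks, 64973 (44.6%, exact interval 44.3 to 44.8) overlapped no peak of differentiated cells. Of the peaks of differentiated cells, 68326 (43.0%, 42.7 to 43.2) overlapped no ESC peak. In base pairs, 226 Mb were covered in both states, which is 48.0% of the 471 Mb covered in ESCs and 54.7% of the 414 Mb covered in differentiated cells.

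Peaks of higher score were shared more often, but they were also wider, and a wider peak overlaps another by 1 bp more easily. In score decile 1 of the ESC peaks, the lowest, 31.7% were shared, and in decile 10 93.9%. In differentiated cells the shares were 41.6% and 85.02%. The median width was 1000 bp in decile 1 of both lists, and in decile 10 it was 9638 bp in ESCs and 6774 bp in differentiated cells, so score and width cannot be told apart here. In decile 10, 6.05% of ESC peaks and 15.0% of peaks of differentiated cells were unshared. Lost peaks had a median score of 14.8 against 34.9 for shared ESC peaks, and gained peaks 16.1 against 29.5. Many unshared peaks were of the smallest width. Exactly 1000 bp was the width of 28637 ESC peaks and 34111 peaks of differentiated cells, and 67.5% and 60.4% of those had no partner.

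Lost peaks lay closer to peaks of the other state than gained peaks did. The median distance from a lost peak to the nearest peak of differentiated cells was 4241 bp, and 55.0% lay within 5 kb. For gained peaks the median distance to an ESC peak was 7234 bp, and 41.2% lay within 5 kb. More than 50 kb from any peak of the other state lay 3.31% of lost and 9.74% of gained peaks. When a peak counted as shared only if at least 50% of it was covered, 58.2% of ESC peaks and 51.3% of peaks of differentiated cells were unshared, so that lost peaks then outnumbered gained ones.

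**Figure D1:**
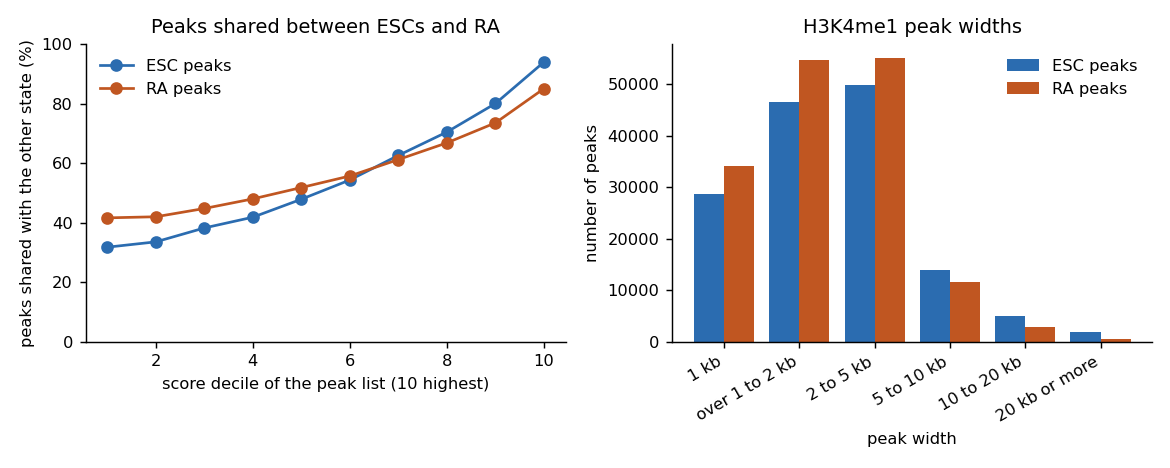
Left, percent of peaks that overlap a peak of the other state, for score deciles of each list (10 is the highest); the share climbs from 31.7% to 93.9% in ESCs and from 41.6% to 85.02% in differentiated cells (RA). Right, number of peaks per width class; ESCs have fewer peaks under 5 kb and more of every class above it.

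H3K4me1 peaks were narrower in differentiated cells, which had fewer broad domains. The median width was 1851 bp in ESCs and 1782 bp in differentiated cells, while the mean was 3228 and 2603 bp. Peaks of at least 10 kb numbered 6868 in ESCs and 3392 in differentiated cells, and they held 26.98% and 13.4% of all bases covered. Peaks of at least 20 kb numbered 1808 and 595. The library of differentiated cells held fewer counts (47177841 against 58803653). The part of depth in peak width and in the splitting of broad domains was not tested.

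Of the ESC peaks of at least 20 kb 99.9% overlapped a peak of differentiated cells, and of such peaks of differentiated cells 99.3% overlapped an ESC peak. At this width an overlap by 1 bp is close to its ceiling, so the bases covered say more. On average such an ESC domain overlapped 4.13 separate peaks of differentiated cells, which covered 66.9% of its bases, while such a domain of differentiated cells overlapped 2.79 ESC peaks, which covered 80.001% of its bases. The median log2 occupancy ratio, differentiated cells over ESCs, was -0.54 for ESC peaks of at least 20 kb and -1.02 for those of over 1 to 2 kb, and 0.65 and 1.09 for peaks of differentiated cells of these widths. Each list was called from the counts compared, which fixes the sign of these ratios. Among the merged regions with peaks of both states, 9550 joined a single ESC peak to several peaks of differentiated cells, and 4942 the reverse. In the 53381 regions with a single peak of each state, the median width was 2228 bp in ESCs and 2001 bp in differentiated cells. There 10134 peaks (19.0%) were at least 2-fold narrower and 6248 (11.7%) at least 2-fold wider after retinoic acid.

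The widest ESC peak, chr15:61867169-62025315 (build mm9, as for all positions here), spanned 158 kb. In differentiated cells 20 separate peaks covered 55.4% of it, and its occupancy was 436 CPM (CpG counts scaled to a library total of 1000000) in ESCs and 209 CPM in differentiated cells. Its 5mC was 32.1% in ESCs and 57.8% in differentiated cells. The widest peak of differentiated cells, chr7:119878917-120004511, spanned 126 kb over 6 ESC peaks that covered 95.8% of it. It held 251 CPM in ESCs and 473 CPM in differentiated cells, with 38.6% and 60.6% 5mC. So the former domain held less H3K4me1 after retinoic acid and the latter more, while 5mC was higher in both.

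H3K4me1 occupancy was taken as all CpG counts of a region, methylated and unmethylated, divided by the library total. The median over the 185230 regions with at least 30 counts summed over both libraries lay at a log2 ratio of -0.02, but the regions spread far to both sides. In bulk chromatin, fewer cells with the mark and less of it per cell cannot be told apart. At least 2-fold higher in differentiated cells were 66386 regions (35.8%), and at least 2-fold lower 62959 (34.0%). Just inside the 2-fold limit, between 2 and 2.2-fold, lay 2612 higher and 4015 lower regions, and just outside it, between 1.8 and 2-fold, 3078 and 4532. With at least 100 summed counts, 36463 regions were at least 2-fold higher and 42063 lower.

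The spread was wider than between XEN libraries of the same label. The interquartile range of the log2 ratio was 3.72 between ESCs and differentiated cells, against 0.74 and 0.58 between the pairs labelled H3K4me1 and H3K27ac. Past 2-fold in either direction lay 69.8% of regions, against 15.2% and 9.57%. In regions with 100 to 300 summed counts in the pair compared, which matches the summed count alone, the shares were 74.5%, 4.65% and 3.41%. In regions with peaks of both states the interquartile range was 1.42, against 0.66 and 0.47, and 35.5% of them lay past 2-fold, against 12.3% and 5.72%. Gained and lost regions, which widen the spread over all regions, were called from the counts compared. The regions were picked from ESC and differentiated-cell peaks, which the XEN pairs were not, and XEN files list no bin under 4 counts.

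Gained regions were called from the same counts, so their ratios describe the lists and test nothing. Of the 68326 gained regions, 56033 reached 30 summed counts, with a median log2 ratio of 3.22 and medians of 11 counts in ESCs and 73 in differentiated cells. Of the 64973 lost regions, 58724 did, with a median of -2.22 and 98 against 18 counts. Among lost regions 13.2% differed by less than 2-fold in counts although only ESCs had a peak, and among gained regions 4.72%. Regions with peaks of both states had a median of 0.01, and 18.4% were at least 2-fold higher and 17.1% at least 2-fold lower.

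**Figure D2:**
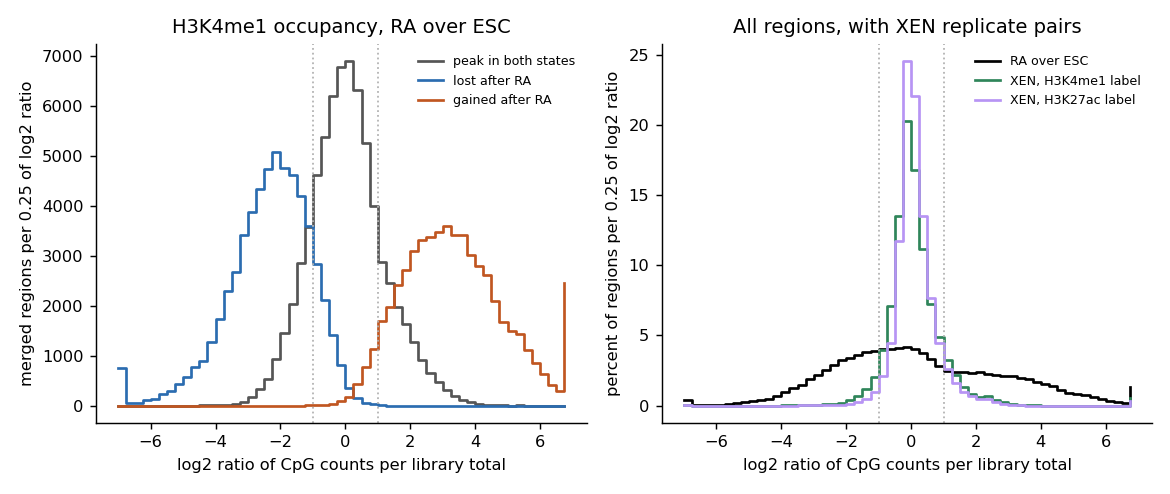
Left, histogram of the log2 ratio of H3K4me1 CpG counts per library total, differentiated cells (RA) over ESCs, for 70473 regions with peaks in both states, 58724 lost and 56033 gained regions; dotted lines mark 2-fold, and the outermost steps collect all larger ratios, including libraries at 0. Right, all regions together as percent, with the ratio between the 2 XEN libraries of each label, whose interquartile ranges of 0.74 and 0.58 lie inside the 3.72 of the 2 states.

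H3K27ac, which the choice of regions did not use, differed in the same direction as H3K4me1. Its median log2 ratio was 1.11 in gained regions, -0.97 in lost regions and 0.05 in regions with both peaks. It was graded with the size of the H3K4me1 change. Where H3K4me1 was over 4-fold lower the median H3K27ac ratio was -1.23, where it was 2 to 4-fold lower -0.87, where it was 2 to 4-fold higher 0.84 and where it was over 4-fold higher 1.33. In these 4 classes H3K27ac was higher in differentiated cells in 9.01%, 14.7%, 85.9% and 93.8% of the regions with at least 30 summed H3K27ac counts, which were 24154 of 35846, 20883 of 27113, 12940 of 17740 and 27115 of 46761. Both marks were measured in 1 library per state, and the libraries of both marks are of the same cell states, so their agreement is no replicate of the comparison.

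Most gained and lost regions carried no H3K27ac peak in either state. Of gained regions 34.0% overlapped an H3K27ac peak of differentiated cells and 5.42% one of ESCs, and 64.6% overlapped neither. Of lost regions 34.0% overlapped an H3K27ac peak of ESCs and 9.16% one of differentiated cells, and 63.9% neither. Among regions with H3K4me1 peaks of both states 20.0% overlapped neither, but their median width was 3725 bp, against 1514 bp for gained and 1516 bp for lost regions, and the part of width in these shares was not tested. Gained regions with an H3K27ac peak of differentiated cells had a median width of 2315 bp and those without 1297 bp.

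The largest ratios, among 62695 regions with at least 300 summed counts, came from regions almost empty in 1 state. At chr14:29169948-29175493 the H3K4me1 library of ESCs held 0 counts and that of differentiated cells 386, and the exact interval of their ratio per library total begins at 129.8-fold higher. Its H3K27ac counts were 18 in ESCs and 421 in differentiated cells, so H3K27ac moved the same way. At chrX:66666276-66676473 the H3K4me1 counts were 0 and 330 (exact interval from 111-fold higher), with H3K27ac counts of 11 and 131. At chr19:52673759-52676625 they were 1 and 454, a ratio of 566 with an exact interval of 101.1 to 22399.6, and the H3K27ac counts were 12 and 73. In these 3 gained regions the 5mC of differentiated cells was 50.3%, 54.2% and 54.2%.

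The lowest ratios were likewise in regions with almost no H3K4me1 counts in differentiated cells. At chr5:125988280-125990580 ESCs held 359 counts and differentiated cells 3, which is 96.0-fold lower per library total (exact interval 32.6 to 468). At chr12:107595372-107597943 the counts were 325 and 3 (86.9-fold lower, 29.5 to 424). At chr17:33729478-33733962 they were 316 and 3 (84.5-fold lower, 28.7 to 412). The H3K27ac counts of these regions were 130 and 19, 48 and 34, and 86 and 19 in ESCs and differentiated cells, so all were lower but not near 0.

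Among gained regions, those with the most counts in differentiated cells were broad and held about 19-fold more H3K4me1 than ESCs. chr3:145909025-145933426 (24402 bp) held 5.82 CPM in ESCs and 109 CPM in differentiated cells. chr11:83712991-83737403 held 4.18 and 77.6, and chr13:57882960-57905167 held 4.05 and 76.8. H3K27ac in the same regions was 7.21 and 94.7, 6.78 and 79.4, and 6.81 and 74.2 CPM. These regions were also occupied in XEN cells, where chr3:145909025-145933426 held 111 and 101.4 CPM in the libraries labelled H3K4me1 and 155 and 151 in those labelled H3K27ac.

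Among lost regions, those with the most ESC counts kept a remainder. chr15:76001946-76021758 (19813 bp) held 94.9 CPM in ESCs and 12.6 in differentiated cells, a 7.51-fold lower value (exact interval 6.90 to 8.18). chr4:126861246-126882279 held 61.4 and 4.92 (12.5-fold lower), and chr7:38248234-38266291 57.3 and 8.22 (6.97-fold lower). H3K27ac was 18.01 and 11.7, 39.5 and 3.40, and 34.8 and 5.51 CPM in these regions. In XEN cells the first of them held 54.5 and 50.3 CPM in the libraries labelled H3K4me1, whereas chr4:126861246-126882279 held 1.81 and 1.91.

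5mC in H3K4me1-bound DNA was higher in differentiated cells in most regions, and more so where H3K4me1 was lost than where it was gained. In the 97868 regions with at least 30 CpG counts in each library, the median 5mC was 42.2% in ESCs and 57.2% in differentiated cells, with a median difference of 13.7 points (quartiles 5.67 and 21.3). By Fisher's exact test for each region, adjusted by Benjamini-Hochberg, which compares these 2 libraries and not the states, 5mC was higher after retinoic acid in 52906 regions (54.1%) and lower in 1387 (1.42%). By over 20 points 28266 regions (28.9%) were higher and 532 (0.544%) lower. Between the XEN pairs labelled H3K4me1 and H3K27ac the median difference was 0.72 and -0.18 points, and 4.17% and 2.61% of regions differed by over 20 points in either direction.

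Bins outside the merged regions differed far less. There 5mC was 56.6% in ESCs and 62.3% in differentiated cells, a difference of 5.74 points, whereas in the merged regions all counts together gave 35.5% and 53.5%, a difference of 17.97 points. Marked DNA thus stood 21.1 points below the rest in ESCs, but 8.89 points below it after retinoic acid. Mitochondrial counts differed by 2.85 points, and the part of this in the differences given here was not tested.

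In regions with peaks of both states (67920 with enough counts) the median 5mC was 39.0% in ESCs and 54.6% in differentiated cells. In lost regions (18886 of 64973) it was 44.0% and 61.6%, and in gained regions (11062 of 68326) 58.3% and 63.6%. Gained regions were thus the most methylated of the 3 classes in ESCs, and differed least, with a median difference of 5.48 points against 14.1 and 16.4. In 33.1% of gained regions 5mC was lower in differentiated cells, against 10.5% of regions with both peaks and 9.24% of lost regions. Most gained and lost regions had too few counts in the state without the peak to be read singly. With all counts of a class summed and no minimum, 5mC was 56.9% and 59.5% in gained, 43.2% and 58.4% in lost, and 33.1% and 51.8% in kept regions. Outside the merged regions it was 56.6% in ESCs and 62.3% in differentiated cells. So in the state without a peak, gained regions lay near that level and lost regions below it. How far the counts there came from DNA without the mark was not tested.

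The change in 5mC was graded with the change in occupancy. Where H3K4me1 was over 4-fold lower, the median 5mC was 40.9% in ESCs and 62.1% in differentiated cells, a median difference of 21.1 points. Where it was 2 to 4-fold lower the difference was 17.3 points, in the 4 classes within 2-fold between 15.1 and 12.9, where it was 2 to 4-fold higher 9.92 and where it was over 4-fold higher 3.98. At least 2-fold lower regions together had a difference of 18.5 points and at least 2-fold higher regions 7.33. By the same test 63.3% of the former and 30.04% of the latter had higher 5mC, beside 54.1% of all regions tested, and 0.371% and 3.67% had lower 5mC, beside 1.42%. Occupancy and 5mC were computed from the same counts of the same 2 libraries, so this relation is a description. Where occupancy was low in either state, the part of DNA without the mark in its 5mC was not tested.

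**Figure D3:**
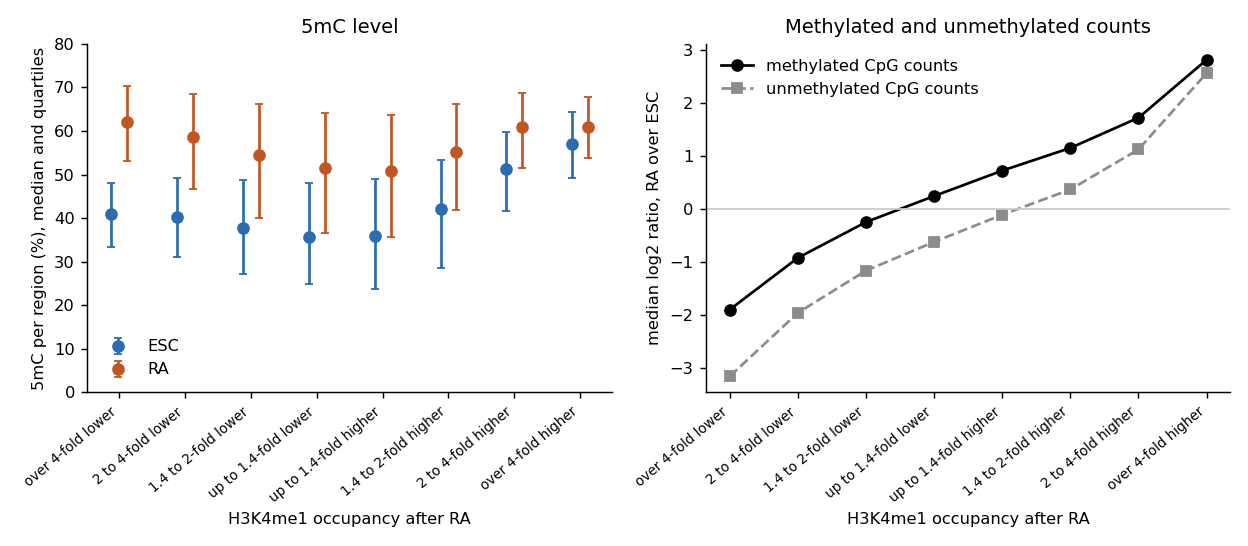
Left, 5mC per region (dot, median; bars, quartiles) in ESCs and differentiated cells (RA) for 8 classes of H3K4me1 occupancy change; the levels of the 2 states lie 21.1 points apart at the left end and 3.98 at the right, by the median difference per region. Right, median log2 ratio of methylated and of unmethylated CpG counts, differentiated cells over ESCs, per library total; unmethylated counts lie below methylated counts in every class.

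Split by state of the CpG, methylated counts were higher and unmethylated counts lower at the median of regions with both peaks. There the median log2 ratio was 0.52 for methylated counts and -0.38 for unmethylated counts, while that of all counts was 0.01. Methylated counts were higher and unmethylated counts lower in 33.2% of these regions, both were higher in 35.3% and both lower in 30.2%. In lost regions methylated counts had a ratio of -1.17 and unmethylated counts of -2.16, so the methylated part was reduced less. In gained regions methylated counts had a ratio of 2.29 and unmethylated counts of 1.90, so both were higher. Of the 28266 regions with over 20 points higher 5mC, 45.6% had fewer counts of both kinds and 41.1% had more methylated and fewer unmethylated counts, beside 38.4% and 25.2% of all 97868 regions. Of the 532 with over 20 points lower 5mC, 72.7% had more counts of both kinds and 52.6% were gained regions, beside 35.3% and 11.3% of all.

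Around the centres of peaks under 5 kb, H3K4me1-bound DNA was least methylated at the centre of the peak in the state that had it. At ESC peaks that were shared, 5mC at the central 200 bp was 32.1% in ESCs and 46.6% in differentiated cells, against 39.4% and 54.0% at 3 kb to the left, so the trough was kept at a higher level. At lost peaks the central value was 39.4% in ESCs and 55.0% in differentiated cells. In differentiated cells 5mC was 63.3% at 1 kb to the left of the centre and 57.4% at 3 kb. At lost peaks the central bin was thus the lowest in differentiated cells too, although they had no peak there.

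At the centre of gained peaks the levels of the 2 states met. There 5mC was 54.8% in ESCs and 53.8% in differentiated cells, 1.06 points lower, although it was 12.7 points higher at 1.6 kb on either side. In ESCs the central value lay below the 58.2% at 1 kb to the left but above the 51.0% at 2 kb and the 46.6% at 3 kb, with 34.7 CPM per 1000 peaks against 297 in differentiated cells. In the H3K27ac libraries the central value was 61.2% in ESCs and 53.2% in differentiated cells. In the H3K4me1 libraries 5mC was lower in differentiated cells in the central bin alone. In the bins next to it, 0.2 kb away, 5mC was 0.49 and 0.74 points higher. Mitochondrial counts were read as methylated more often in differentiated cells, by 2.85 points. This is opposite in direction to the 1.06 points and larger than the 0.49 and 0.74 points, and its part in them was not tested.

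**Figure D4:**
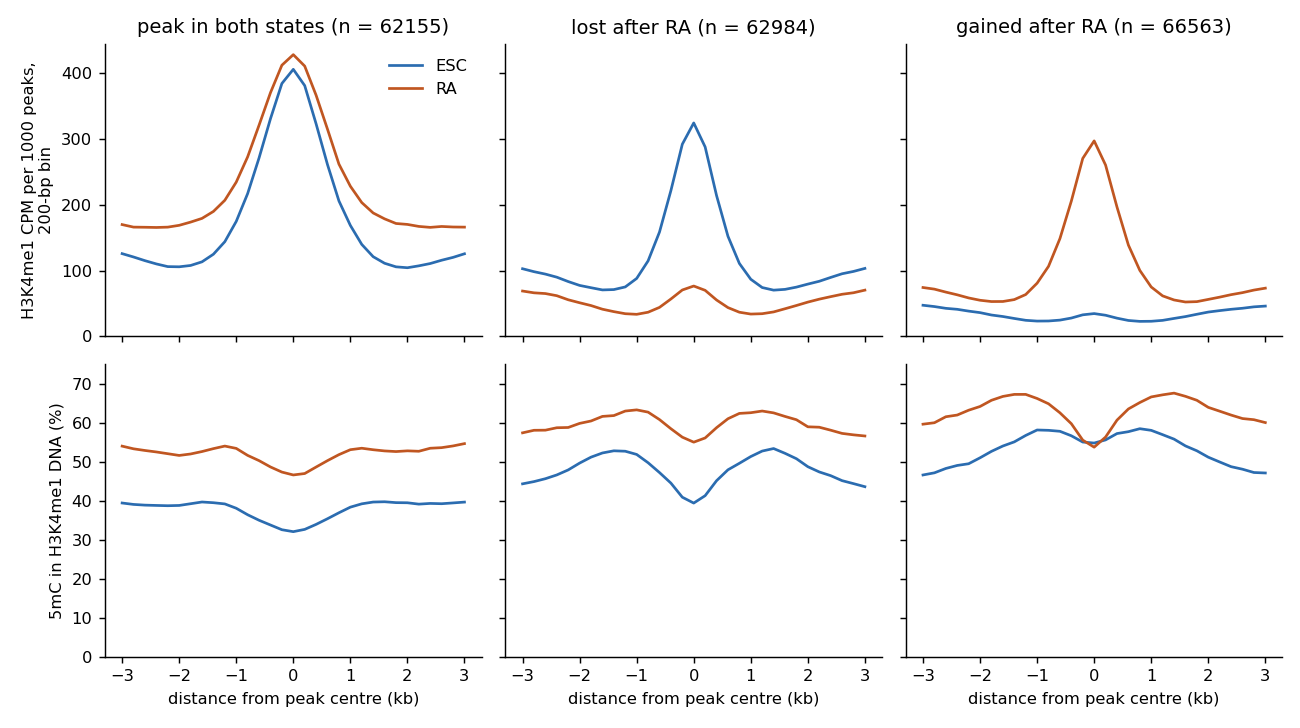
H3K4me1 occupancy in CPM per 1000 peaks (top) and 5mC of those counts (bottom) in 200-bp bins within 3 kb of the centres of peaks of 1 to 5 kb, in ESCs and differentiated cells (RA). Shared peaks are centred on the ESC peak. At gained peaks the 5mC curves meet at the centre, at 54.8% and 53.8%, and lie apart on both sides.

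Regions were then grouped by the 5mC they started from in ESCs. The difference was largest for regions of middle 5mC and smaller at both ends. Under 10% (1890 regions) the median went from 7.36% to 17.5%, a median difference of 10.3 points. From 10 to 20% (7203 regions) the difference was 13.3 points, from 20 to 30% (14411) 16.1, from 30 to 50% (42366) 17.0 and at 50% or more (31998) 8.21. In finer steps the largest difference was 17.8 points, for regions of 30 to 40%, and above 70% (2672 regions) it was -4.03 points. The start and the difference use the same ESC counts, so the start was also read in the H3K27ac library of ESCs. There the differences in H3K4me1 5mC were 10.6, 15.4, 18.2, 17.9 and 12.4 points in the same order. These classes hold other regions, since those under 10% in H3K27ac (10108) had a median 5mC of 18.1% in the H3K4me1 library of ESCs, so the 2 sets of classes are not alike at the low end.

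**Figure D5:**
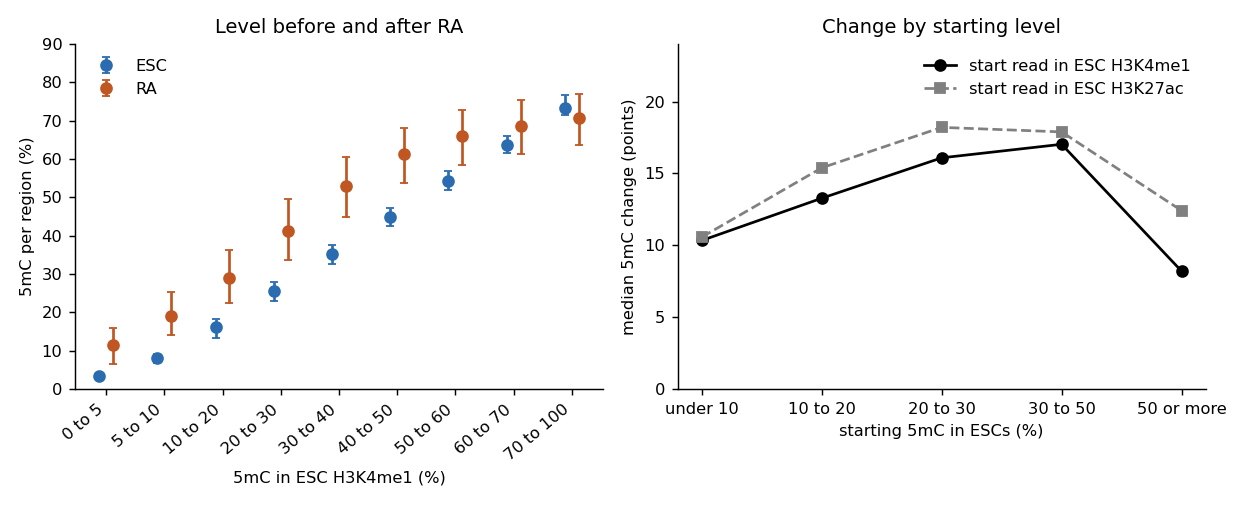
Left, 5mC per region in ESCs and differentiated cells (RA) for 9 classes of 5mC in ESCs (dot, median; bars, quartiles). Right, median 5mC difference, differentiated cells minus ESCs, for 5 classes of starting 5mC read in the H3K4me1 or in the H3K27ac library of ESCs; both curves are highest in the middle, and at 50% or more they stand at 8.21 and 12.4 points.

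Most regions under 10% stayed under 20%, while most of those at 10 to 20% did not. Of regions under 10% in ESCs 61.1% were still under 20% in differentiated cells, 26.4% reached 20 to 30%, 12.01% reached 30 to 50% and 9 regions reached 50% or more. Of regions at 10 to 20% in ESCs 17.2% were still under 20%, and 41.9% reached 30 to 50%. Of those at 20 to 30%, 24.6% reached 50% or more, and of those at 30 to 50%, 72.7% did. In the opposite direction, 6.23% of regions of 50% or more came down to 30 to 50%.

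The regions of lowest 5mC were also those whose occupancy differed least. Within 2-fold lay 85.4% of regions starting under 10%, 80.7% of those at 10 to 20%, 66.6% at 20 to 30%, 49.5% at 30 to 50% and 38.8% at 50% or more. At least 2-fold higher were 4.07% of the first and 43.3% of the last. The median summed count was 567 in the first class and 264 in the last, so the last class has more counting error.

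Taken within a class of starting 5mC, the relation to occupancy took another shape at low starting levels. In regions of 50% or more the median difference was 14.5 points where H3K4me1 was at least 2-fold lower, 10.7 within 2-fold and 3.55 where it was at least 2-fold higher. From 30 to 50% it was 19.9, 16.4 and 13.6 points in the same order. From 20 to 30% it was 20.6, 14.3 and 18.1 points, and from 10 to 20% 17.3, 12.5 and 18.2, so there regions with more H3K4me1 had a larger difference than those within 2-fold. Under 10% it was 12.3, 10.1 and 11.96 points, with 77 regions in the last group. Starting level, difference and occupancy here all use the same ESC counts. The start read in H3K27ac was not split by occupancy.

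In the H3K27ac libraries 5mC of gained regions was lower in differentiated cells at the median, while in the H3K4me1 libraries it was higher. Gained regions have no H3K4me1 peak of ESCs, and 5.42% of them overlapped an H3K27ac peak of ESCs. Their ESC counts therefore need not come from DNA with either mark. In the 62611 regions with at least 30 counts in all 4 libraries the median difference was 14.8 points in H3K4me1 and 7.59 in H3K27ac. In regions with both peaks it was 14.8 and 7.39 points. In the 7142 of 64973 lost regions with so many counts it was 19.2 and 16.02 points, but with all counts of lost regions summed and no minimum the order turned, with 15.2 and 17.6 points. In the 4009 of 68326 gained regions it was 4.22 points in H3K4me1 and -3.77 in H3K27ac, and 5mC was higher in H3K4me1 and lower in H3K27ac in 35.5% of them, beside 18.6% of all 62611. With all counts of gained regions summed it was 2.62 and -5.53 points. 5mC was higher in both marks in 71.8% of the 62611 regions and in 29.0% of the 4009 gained ones. The difference between marks was not tested, since each mark has 1 library per state.

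The largest rises, among regions with at least 100 counts in each library and an adjusted p under 0.05, were at peaks of both states. That minimum leaves out most gained and lost regions, which had medians of 11 counts in ESCs and 18 in differentiated cells, so it favours such peaks. At chr10:20128493-20131207 5mC was 29.7% of 209 counts in ESCs and 93.3% of 104 in differentiated cells (Fisher's exact test, Benjamini-Hochberg adjusted p = 8.41e-28). At chr10:120839287-120843279 it was 18.6% of 835 and 75.2% of 258 (same exact test, Benjamini-Hochberg adjusted p = 1.53e-60). At chr13:58006225-58009366 it was 16.5% of 194 and 70.2% of 171 (same exact test, Benjamini-Hochberg adjusted p = 6.08e-25). H3K27ac-bound DNA went along at the second, with 12.3% and 80.5%, but not at the others, with 61.0% and 68.7% and with 11.1% and 14.3%.

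Falls were smaller. At chr17:49501759-49505560 5mC was 67.7% of 164 counts in ESCs and 33.3% of 445 in differentiated cells (Fisher's exact test, Benjamini-Hochberg adjusted p = 2.93e-13). At chr7:54404030-54406804 it was 41.7% of 187 and 10.3% of 107 (same exact test, Benjamini-Hochberg adjusted p = 2.39e-08). At chr14:25468405-25472337, a gained region, it was 59.5% of 111 and 29.9% of 288 (same exact test, Benjamini-Hochberg adjusted p = 4.37e-07). In the first and the third H3K4me1 was 3.38-fold and 3.23-fold higher in differentiated cells, and in the second 1.402-fold lower. H3K27ac-bound DNA was at 76.6% and 42.6% in the first and at 65.7% and 19.5% in the third, and in the second it had 20 and 17 counts.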

How the data were processed

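The files were H3K4me1 ChIP-BS-seq of R1 ESCs and of cells differentiated with retinoic acid, with H3K27ac and XEN libraries beside them. Per the paper's methods, alignment was single-end with Bismark and Bowtie (mm9 in the submitters' processing notes) and reads of mixed CpG state were removed. The authors deposited, for every 200-bp bin, the raw counts of methylated and of unmethylated CpGs. The paper states that every experiment was repeated, but whether a file holds 1 repeat or several was not established. Peaks were called by the authors with HOMER, with local and clonal filters off, once per mark and state, and the deposited lists give a score per peak. Whether duplicate reads were removed before the bin counts is not given in the sources used here, so counts may not be independent molecules. CpGs on the same read also share a state once mixed reads are removed. Exact tests and intervals treat all counts as independent and so understate the error.

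Bins were assigned to regions by their midpoint. Occupancy needed 30 counts summed over both libraries and 5mC 30 in each. Fisher's exact test was run per region with Benjamini-Hochberg adjustment over all 97868 regions. At an unadjusted p under 0.05 it gave 56748 higher and 1794 lower regions. Shares and ratios have exact 95% (Clopper-Pearson) intervals. The functions were tested on simulated data. The regions named are the 3 with the highest and the lowest ratio (at least 300 summed counts), the 3 gained and the 3 lost with the most counts, the 3 largest rises and falls of 5mC (at least 100 counts in each library, adjusted p under 0.05) and the widest peak of each list, leaving out chromosome 18. The members, lists and tests were chosen with earlier results of these data known. No annotation of mm9 was used, so gene lists that had been planned were dropped and regions carry no gene names. The single-cell, input and H3K36me samples were not used here. Alternatives were other count minimums, scaling to regions with both peaks, the 100000 peaks of highest score, 50% coverage for a shared peak, and the starting 5mC of H3K27ac. Software was Python 3.11.15 with scipy 1.17.1, numpy 2.4.6, pandas 2.3.3 and matplotlib 3.10.9.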

Additional observations from a re-analysis of the deposited data

How the results depend on the processing

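The balance of higher and lower occupancy and that of gained and lost peaks depended on the settings. The median log2 occupancy ratio of -0.02 was 0.0228 when scaled to the counts of regions with both peaks and 0.0253 with at least 1 count in each library, and was -0.17 with at least 100 summed counts. With that minimum the balance turned, as 36463 regions were at least 2-fold higher and 42063 lower, against 66386 and 62959. The counts of regions changed in 5mC stayed within 1.5 times.

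Among the 100000 peaks of highest score per list, 42.4% of peaks of differentiated cells and 47.6% of ESC peaks were unshared, so that lost peaks outnumbered gained ones, and the median widths were 2502 and 2601 bp. With 50% coverage for a shared peak, 51.3% and 58.2% were unshared, and again lost peaks were more numerous. The median 5mC difference was 13.4 points with at least 20 counts per library and 14.2 with 60. In the same order it was 6.79 and 8.56 in regions at least 2-fold higher in occupancy, 18.1 and 19.3 in those at least 2-fold lower, and 7.73 and 9.13 in those starting at 50% or more. The latter was 12.4 when the start was read in H3K27ac. No paired analysis was possible because each state has 1 H3K4me1 library, and no library could be left out for the same reason. The depth limits 5mC in the state without a peak, where 18886 of 64973 lost and 11062 of 68326 gained regions had 30 counts in both libraries.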

Other observations

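Gained and lost regions were also unlike in XEN cells, which are of another differentiation. Gained regions held 1.80% of the H3K4me1 counts of ESCs and 15.1% of those of differentiated cells, and lost regions 15.5% and 3.54%. In the XEN libraries labelled H3K4me1, gained regions held 7.17% and 7.31% of counts and lost regions 4.14% and 4.49%. In those labelled H3K27ac the shares were 12.9% and 13.7% in gained and 2.37% and 2.66% in lost regions. The 5mC of lost regions was 73.0% and 72.2% in the XEN libraries labelled H3K4me1 and 62.8% and 63.6% in those labelled H3K27ac, and the 5mC of gained regions 61.3%, 62.2%, 64.3% and 63.4% in the same order. XEN files list no bin under 4 counts.

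Chromosomes differed in the balance of gained and lost H3K4me1, with chromosome X just above the range of the autosomes. The number of gained per lost region ran from 0.762 on chromosome 17 to 1.39 on chromosome 3 among autosomes and was 1.47 on chromosome X. On chromosome Y it was 1.56, with 14 gained and 9 lost regions. The log2 ratio of counts outside the merged regions followed in part, from -0.10 on chromosome 17 to 0.27 on chromosome 3, with 0.21 on chromosome X, where the ratio inside the regions was 0.46. Its part in the balance was not tested. The 5mC of all counts in regions was 17.4 to 18.9 points higher in differentiated cells on every autosome and 18.5 points higher on chromosome X. The level on chromosome X, 32.1% in ESCs and 50.5% in differentiated cells, lay below the lowest autosome (33.6% and 51.3%, both chromosome 7), and its median difference per region of 14.9 points lay above the highest autosome (14.03 on chromosome 16). Chromosome Y, with 15 regions of at least 30 counts in each library, had a difference of -0.15 points over all counts in its regions.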
